A study of Mus musculus with 6 samples.

Results

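The windows longer than 20 kb of the mouse autosomes were examined in a methylation table of G1 and G2/M embryonic stem cells. They were taken from a table that divides the genome into windows holding a set number of CpG sites, and a window was included when it lay on chromosomes 1 to 19 and spanned more than 20000 bp. This gave 1672 windows of 359192 in the whole table, and 343108 autosomal windows remained for comparison. All 6 libraries came from E14TG2a cells, a mouse embryonic stem cell line of the 129/Ola strain, grown in serum with LIF on gelatinized plates, labelled with EdU, fixed in ethanol and sorted by EdU and DNA content into G1 and G2/M, with 3 libraries per phase. Both phases thus carried the same genotype, label and fixation and differed, by their labels, in the sorted phase alone. CpG methylation was read by enzymatic methyl-seq (EM-seq), in which modified cytosines are protected by TET2 and the rest are deaminated, so that 5-methylcytosine and 5-hydroxymethylcytosine are read alike. The values are percentages of methylated calls per window and library. No read counts accompany them, so the depth behind a value is unknown.

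CpG dinucleotides are the main site of DNA methylation in mammals. A methylated cytosine deaminates to thymine, and over evolution most of the genome has lost CpGs by this route, apart from CpG islands that are kept unmethylated. After replication the new strand is unmethylated, and DNMT1 with its partner UHRF1 restores the mark. In embryonic stem cells grown in serum most CpGs outside islands are methylated, while long AT-rich domains in many cell types replicate late and are less methylated than the rest.

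A window of fixed CpG number becomes long where CpGs are rare, so that long windows were labelled CpG deserts. The reference sequence (GRCm38) bore this out for a minority of them. The median autosomal window held 51 CpG dinucleotides, which are read on both strands. Only 253 of the 1672 long windows (15.1%) had at most 75 CpG dinucleotides and no run of 100 or more unknown bases, and these are called sparse windows. A further 1335 (79.8%) held more than 75 and are called over-full windows, while 84 (5.02%) spanned an assembly gap. The cut at 75 divides a continuous range, with 30 long windows at 71 to 75 CpGs and 37 at 76 to 80. The long windows as a whole are therefore not called deserts here. By the same rule 331838 of the 343108 other autosomal windows are sparse too, so for shorter windows the name does not mean poor in CpG.

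The 3 classes differed in sequence. Sparse windows had a median length of 20861 bp and none exceeded 27696 bp. Their median density was 2.69 CpG per kb, against 8.51 for autosomal sequence as a whole, and their median GC content was 36.9% against 43.2% for other autosomal windows. Over-full windows had a median length of 25758 bp, held a median of 176 CpG dinucleotides and had 6.11 CpG per kb. In 325 of them (24.3%) the density reached or passed the autosomal mean, and 170 held more than 500 CpGs. The table's windows are of 100 CpG positions, so the percentage of an over-full window can rest on a part of its CpGs. Which part is not given. Gap windows had a median length of 120320 bp, and unknown bases made up 35.3% of their summed length. The copy number of the sequence also differed. From each window 50 words of 64 bases were sampled, and only exact matches in the genome were counted. The median share found at more than 1 place was 34.0% in over-full windows, 4.00% in sparse windows and 0% in other autosomal windows (1 in 10 of these sampled). Inexact repeats are not counted in this share. The median share of bases masked as repetitive in the reference was 50.5% in over-full, 40.8% in sparse and 25.3% in other autosomal windows. In 512 over-full windows (38.4%) at least 50 percent of the words were repeated. Another 11193 autosomal windows, not among the long ones, were over-full by the same rule. Their median share of repeated words was 46% and their median masked share 63.2%. At least 50 percent of the words were repeated in 42.8% of those sampled. By these shares the long over-full windows were no more repeated than the shorter over-full ones. Reads from repeated sequence can be lost to a mapping filter, and the part of this in the window lengths was not tested.

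**Figure D1:**
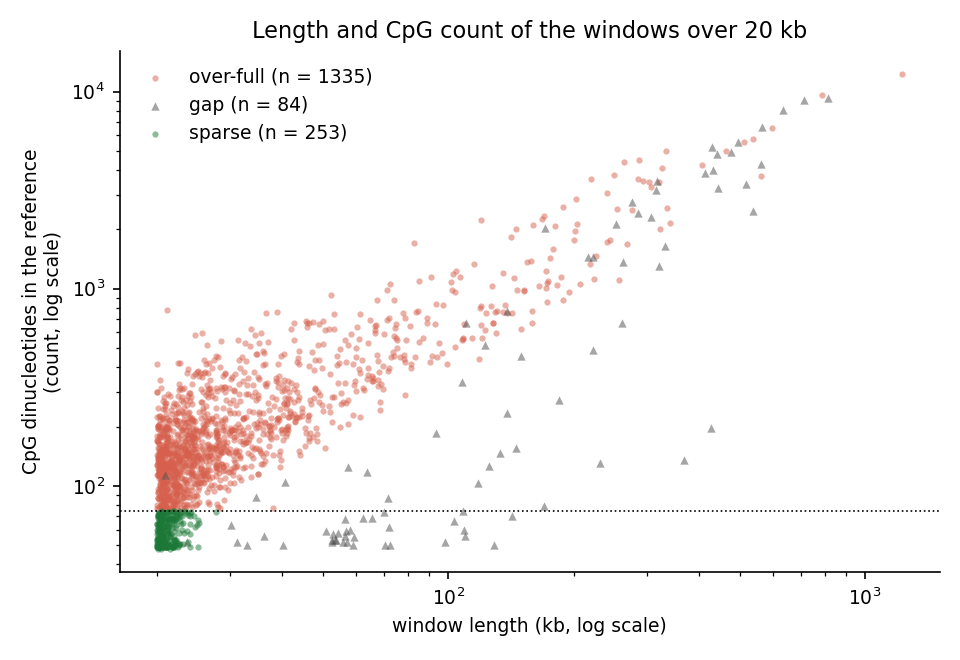
Length (x axis, kb, log scale) and number of CpG dinucleotides in the reference (y axis, log scale) of the 1672 windows over 20 kb, one point each, coloured by sequence class, with a dotted line at 75 CpGs. The 253 sparse windows form a compact group under the line and none is longer than 27696 bp, while the over-full windows rise with length to 12203 CpGs.

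The sequence at the centre of a sparse window shows what low density looks like. The stretches below are 300 bases of the GRCm38 plus strand, with CpG in capitals. The first ones are from the longest and the least methylated sparse windows, and the last is from the window with the highest CpG density among the 10 flanking the longest one.
Longest sparse window, chr4:114156907-114157206: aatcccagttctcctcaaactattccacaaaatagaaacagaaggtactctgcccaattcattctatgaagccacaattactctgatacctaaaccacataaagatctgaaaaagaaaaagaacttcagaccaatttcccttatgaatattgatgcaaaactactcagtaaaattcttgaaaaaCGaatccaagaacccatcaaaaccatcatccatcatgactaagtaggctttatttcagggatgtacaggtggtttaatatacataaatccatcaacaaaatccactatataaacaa
Least methylated sparse window, chr3:112712239-112712538: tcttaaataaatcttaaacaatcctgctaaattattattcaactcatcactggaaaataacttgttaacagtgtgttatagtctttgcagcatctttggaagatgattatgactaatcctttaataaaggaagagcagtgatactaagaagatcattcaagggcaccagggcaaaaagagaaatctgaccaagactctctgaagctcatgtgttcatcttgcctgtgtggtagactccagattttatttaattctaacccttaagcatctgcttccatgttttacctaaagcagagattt
Dense neighbour of the longest sparse window, chr4:114141194-114141493: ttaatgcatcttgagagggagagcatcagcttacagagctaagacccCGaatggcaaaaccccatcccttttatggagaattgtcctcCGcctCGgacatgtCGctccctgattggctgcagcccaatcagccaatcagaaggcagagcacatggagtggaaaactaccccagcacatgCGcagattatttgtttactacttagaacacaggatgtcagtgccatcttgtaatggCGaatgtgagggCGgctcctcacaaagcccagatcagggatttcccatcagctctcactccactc
The first stretch holds 1 CpG in 300 bases and the next holds 0, whereas the neighbour holds 7. The longest distance between adjacent CpGs was 1842 bp in the longest sparse window and 1665 bp in the least methylated, and their densities were 2.67 and 3.08 CpG per kb.

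Long windows were unevenly placed. Chromosome 7 held 248 and chromosome 4 held 191, which is 1.26% and 0.938% of their windows. Chromosome 14 held 149 (0.963%), while chromosome 19 held 18 (0.188%), the lowest share. Chromosomes 7 and 1 had the highest shares of sparse windows, 0.142% (28 windows) and 0.141% (36 windows), and chromosome 19 had 1 sparse window. By number, over-full windows ranked chromosomes 7, 4 and 14 first, as all long windows did. Sparse windows were most numerous on chromosome 1, followed by chromosomes 7 and 4 (24 windows). By share, chromosome 7 was highest and chromosome 19 lowest for all long windows and for sparse ones.

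**Figure D2:**
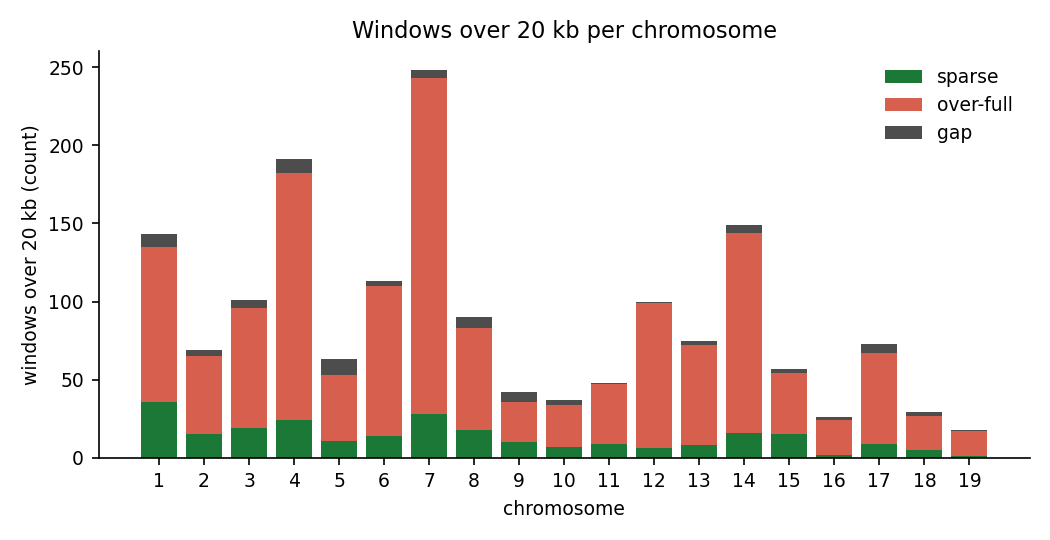
Number of windows over 20 kb (y axis) on each autosome (x axis), stacked by sequence class. Chromosome 7, with 248, and chromosome 4, with 191, stand highest, and over-full windows make up most of every bar.

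Within chromosomes, long windows were clustered. They fell in 664 of 2408 bins of 1 Mb (27.6%), and the 90 bins with 5 or more held 716 of them (42.8%). In 25.2% of cases the next listed window after a long window was also long, although long windows are 0.485% of autosomal windows. The longest run of consecutive listed windows was 16. Windows with too few observed CpGs are not listed and can lie between such neighbours. That run was of over-full windows. Sparse windows were nearly all solitary, with 243 standing alone and 5 adjacent pairs, and no 1 Mb bin held more than 5. Measured from the centromere-proximal end of each chromosome, 11.7% of long windows lay in the first 10% of the chromosome's length, against 6.74% of other windows. Sparse windows were fewer towards the other end, with 6.72% in the last 10% of the length against 12.2% of other windows. Between 80% and 90% of the length, the lowest share, they had 2.37% (6 windows) against 12.1%.

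The bins with most long windows differed in what they hold. The bin chr14:6000001-7000000 had 18 long windows, all over-full, among 21 coding genes known only by model names, and the median share of repeated words in them was 86.0%. The bin chr6:130000001-131000000 had 17, among Klra genes, which encode Ly49 receptors of natural killer cells. The bin chr7:8000001-9000000 had 13 among Vmn2r pheromone receptor genes, with 90% repeated words, and chr7:32000001-33000000 had 13 among Scgb secretoglobin genes, with 76%. A different kind of bin was chr4:150000001-151000000, with 14 over-full windows around Rere and Camta1. There the median share of repeated words was 2% and the median density 11.8 CpG per kb. By these measures the windows were neither repeated nor poor in CpG. The bin with the most sparse windows, 5 of its 10 long windows, was chr7:61000001-62000000, and no coding gene overlaps it.

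By the position of their centre (GENCODE M21 gene models), 75.1% of sparse windows were intergenic and 17% intronic. Other autosomal windows were 41.8% intergenic and 44.2% intronic, and sparse windows of 10 to 20 kb were 65.8% and 29.3%. A coding gene was touched by 21.3% of sparse windows, 44.6% of over-full windows and 52.8% of other windows. Promoter positions accounted for 4 sparse windows (1.58%), against 4.94% of other windows and 1.59% of sparse windows of 10 to 20 kb.

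Of 20807 autosomal coding genes, 1145 (5.50%) touched a long window and 52 touched a sparse one. Among 25 long genes, most of them of neuronal adhesion and synapses, the count was 9 (36.0%), with 25 long windows in them, 6 of which were sparse. These genes span many windows each, and gene length was not adjusted for. Sgcz, a sarcoglycan gene on this list, alone held 9 of the long windows and 2 of the sparse ones. Vomeronasal receptor genes, which detect pheromones, touched long windows in 50 of 329 cases (15.2%), and olfactory receptor genes in 55 of 1128 (4.88%), close to the share of all genes. Of 17 autosomal pluripotency genes 1 did so. It was Pou5f1, which encodes the core pluripotency factor OCT4 and lies in an over-full window.

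Sgcz, which encodes a sarcoglycan, a membrane protein of the dystrophin complex, touched the most long windows, 9 of its 80, of which 2 were sparse. Their mean methylation was 48.1%, 47.4% and 53.0% in G1 against 45.8%, 45.6% and 51.1% in G2/M. Ptprd, a receptor tyrosine phosphatase of synapses, had 5 of its 195 windows and a mean of 48.7% over the 6 libraries, and Cpq, a carboxypeptidase, had 5 of 33 and 55.2%. All 3 means lay below that of all long windows (58.2%). Cpq had the most sparse windows of any gene, 3. In Erbb4, a neuregulin receptor spanning 1076 kb, the table holds 7 windows and 6 were over-full. In Rere, a transcriptional corepressor, 7 of 9 were over-full. The windows of Rere averaged 64.8% and those of Camta1, a calmodulin-binding transcription activator, 67.9% over 6 windows. Skint5, of a family related to the T cell selection gene Skint1, had the lowest mean of these genes, 34.7% over 6 windows. Csmd2, which encodes a large membrane protein, had the highest, 74.6% over 4 windows. The other genes of the 10 with most long windows were Gm3002 (5 windows, mean 57.1%) and Cntnap5c, a relative of contactin-associated proteins (4 windows, mean 56.4%).

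Long windows had a lower mean methylation than the rest of the autosomes in every library. Their mean was 58.5%, 55.6% and 63.2% in the G1 libraries against 56.2%, 54.0% and 61.6% in the G2/M libraries (replicates 1, 2 and 3 in that order throughout). Other autosomal windows averaged 63.0%, 60.7% and 69.1% in G1 against 61.8%, 60.1% and 68.4% in G2/M. The long windows lay below the others in 6 of 6 libraries, with a mean difference of -5.69 percentage points (two-sided exact sign-flip test over 3 replicate numbers, p = 0.25, the smallest this test can give). Replicate 3 was highest and replicate 2 lowest in both phases and in both sets of windows. The level therefore moved with the replicate number by more than with the phase.

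Sparse windows had lower means still. They averaged 56.1%, 52.5% and 60.0% in G1 against 52.7%, 50.6% and 58.1% in G2/M. The mean difference was -8.86 points from other autosomal windows and -3.48 points from over-full windows, below 0 in 6 of 6 libraries in both cases (exact sign-flip test, p = 0.25 for each). Over-full windows averaged 58.6%, 56.0% and 63.4% in G1 against 56.6%, 54.5% and 61.9% in G2/M. Gap windows were closest to the rest, with 62.5%, 59.2% and 69.6% in G1 against 61.1%, 56.9% and 67.1% in G2/M, and in G1 replicate 3 they lay above other windows.

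**Figure D3:**
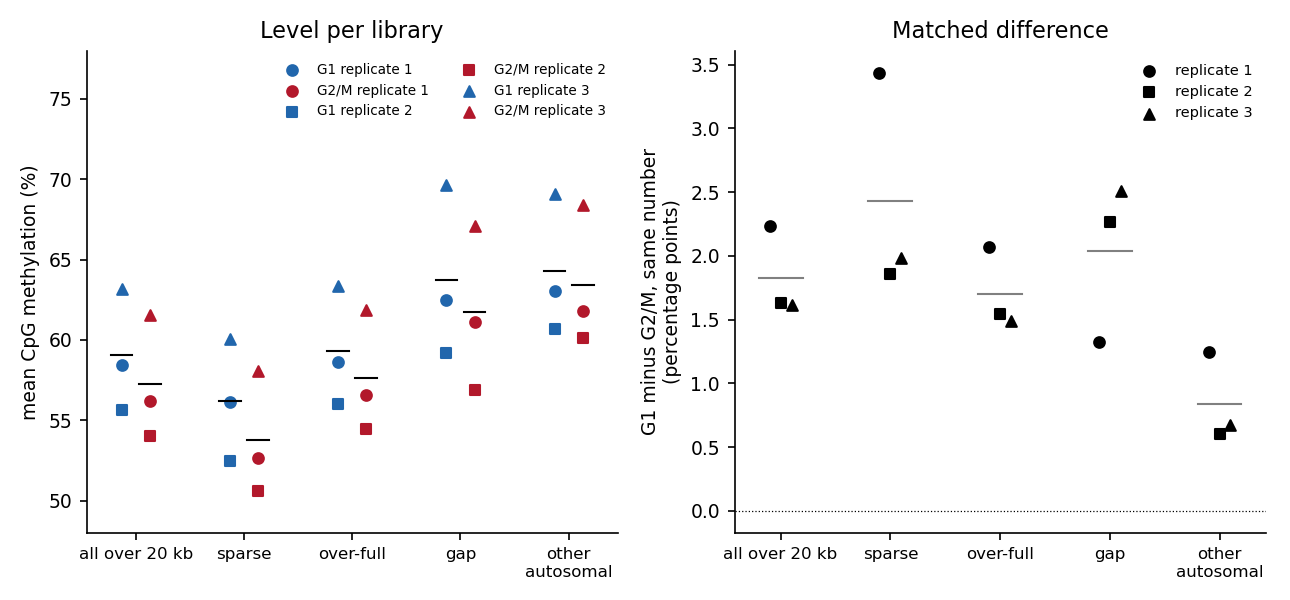
Left, mean CpG methylation (y axis, %) of each library for all windows over 20 kb, their 3 sequence classes and the other autosomal windows, with G1 in blue, G2/M in red, symbols for the replicate number and bars for the mean of 3 libraries. Right, the G1 minus G2/M difference within each replicate number (percentage points) with its mean as a bar. Every matched difference is above 0, and the 3 values of the sparse windows (1.86 to 3.44) all lie above those of other autosomal windows (0.605 to 1.24).

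Long windows were also compared with their neighbourhood. Each long window was set against its flank, the 5 nearest shorter windows on each side within 1 Mb. The flanks of long windows averaged 60.6%, below the 63.9% of other autosomal windows. The flanks of sparse windows averaged 60.9% and those of over-full windows 60.3%, while the flanks of gap windows (64.6%) and of sparse long windows with at most 55 CpGs (63.9%) were not lower. The long windows differed from their flanks by -2.41 points, below 0 in 6 of 6 libraries (exact sign-flip test, p = 0.25). For sparse windows the difference from the flank was -5.86 points, between -6.18 and -5.49 in each library. For over-full windows it was -1.79 points. The difference from the flank varied less between libraries than the level itself.

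**Figure D4:**
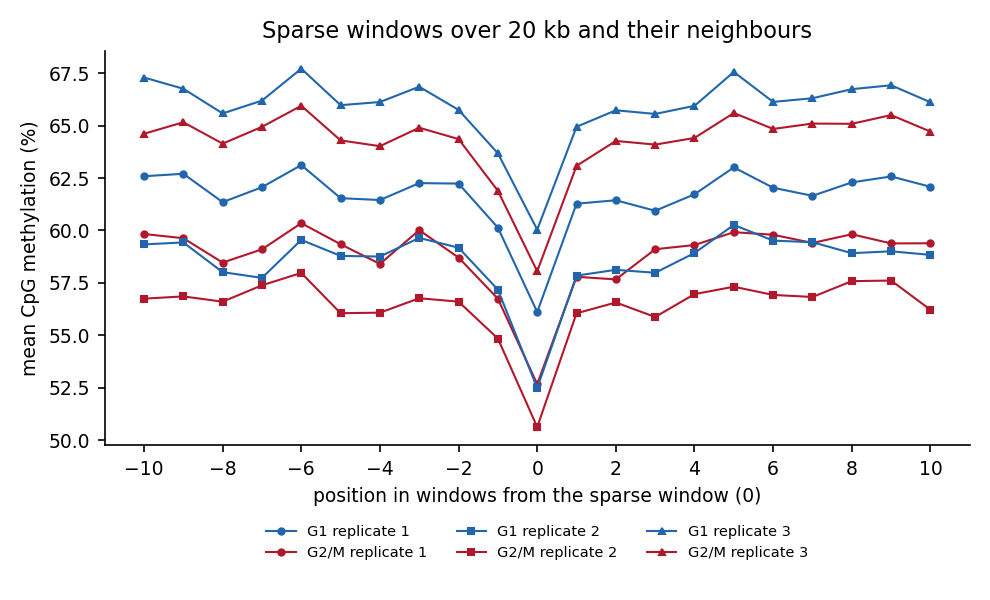
Mean CpG methylation (y axis, %) of the 253 sparse windows over 20 kb (position 0) and of the 10 nearest windows of at most 20 kb on each side (x axis, position in windows), one line per library, G1 in blue and G2/M in red. All 6 lines have their lowest point at position 0, with values from 50.6% to 60.0%, and the windows directly beside it lie between 54.8% and 64.9%.

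Level did not run in one direction with length. Autosomal windows under 2 kb, which include the CpG islands, averaged 17.4% over the 6 libraries. The mean was highest at 5 to 10 kb, 68.0%, then 63.7% at 10 to 20 kb and 56.6% at 20 to 25 kb, and it was 62.1% in the 291 windows over 50 kb. Among sparse windows the sequence was 68.1%, 63.7% and 55% for 5 to 10, 10 to 20 and 20 to 25 kb. Their mean densities were 7.76, 4.30 and 2.78 CpG per kb. The levels of long windows without an assembly gap also differed with their number of CpGs, in classes chosen after the values were seen. The 114 windows with at most 55 CpGs, the number that most windows of the table have, averaged 59.5%. The 67 windows with 56 to 65 averaged 53.4% and the 72 with 66 to 75 averaged 49.4%. Above 75 the mean was higher again, from 54.1% at 76 to 100 to 61.7% above 300. Among sparse windows the lowest level was thus in those that held more CpGs than the table's usual number. Autosomal windows under 3 CpG per kb, of any length, averaged 60.4% (1469 windows, 178 of them long), a difference of -3.47 points from other windows and above the 55% of the sparse windows over 20 kb.

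**Figure D5:**
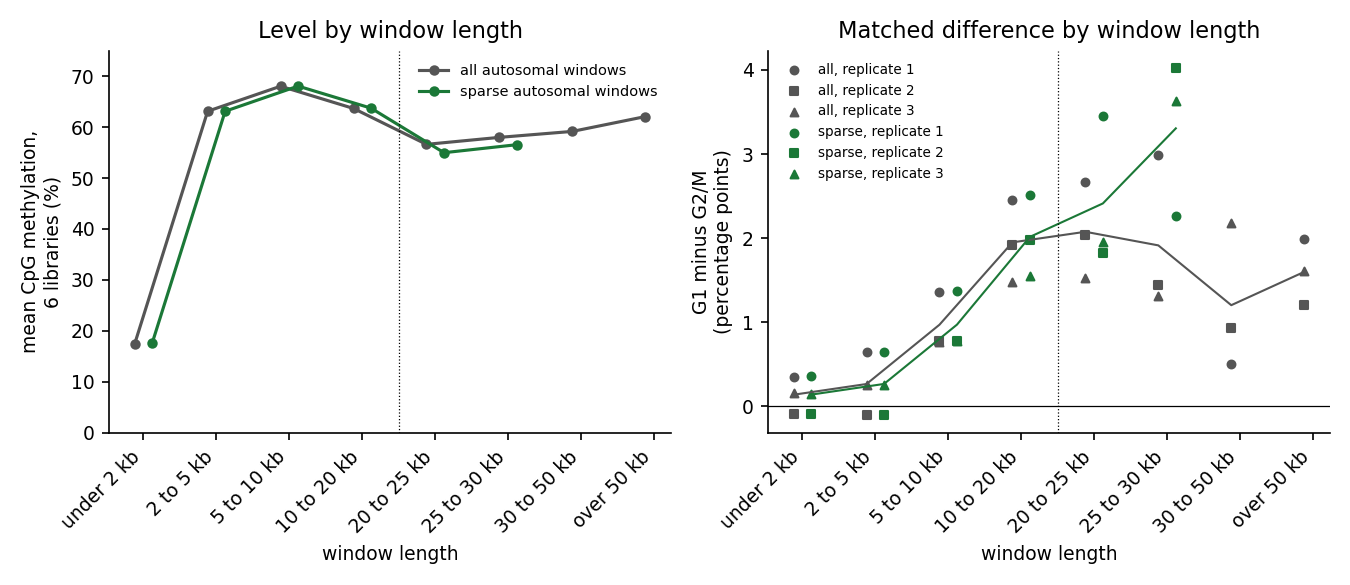
Left, mean CpG methylation over 6 libraries (y axis, %) by window length (x axis) for all autosomal windows and for sparse ones (at most 75 CpGs and no assembly gap), with a dotted line at 20 kb. Right, the G1 minus G2/M difference in percentage points for each replicate number, with lines joining the means. The level peaks at 68.0% at 5 to 10 kb and is 56.6% at 20 to 25 kb, and the mean difference goes from 0.14 points under 2 kb to 2.08 at 20 to 25 kb in all windows. The last sparse point rests on 4 windows.

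The long windows spread around these means by 11.7 to 12.6 points (SD over windows in each library) and the sparse ones by 8.64 to 10.1. Of all 1672, 1591 had a 6-library mean from 40% to 80%, and none was listed at 0% or 100% in any library. Over sparse windows the level was related to that of the flank (Pearson r = 0.62, Spearman rho = 0.63, across 253 windows that share the 6 libraries) and inversely to CpG density (r = -0.49, rho = -0.52). Sparse windows differ little in length (quartiles 20381 and 21811 bp), so their density mostly follows their CpG count and is no separate relation. With density the sign was the opposite over the 1335 over-full windows (r = 0.17, rho = 0.26) and over all 1672 long windows (r = 0.18, rho = 0.26). Autosomal windows without an assembly gap averaged 60.2% under 2.5 CpG per kb and 68.3% at 8 to 10. At 10 to 20 CpG per kb they averaged 64.5%, and 34.6% above. Genomic windows are not independent replicates, and the values are descriptions.

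Among the most methylated sparse windows was chr11:77254477-77275107, an intronic window of Ssh2, a cofilin phosphatase gene, with 66.4%, 72.0% and 72.8% in G1 against 73.4%, 64.2% and 76.5% in G2/M. Its mean was 70.9%, and that of chr13:35303558-35324057, an intergenic window, was 70.7%. The least methylated was chr3:112701042-112723735, 523 kb from the amylase gene Amy2a5, with 38.2%, 31% and 37.2% in G1 against 33.5%, 22.8% and 40.5% in G2/M. It was followed by chr15:19689503-19712138 (35.3%), 675 kb from the cadherin gene Cdh10, and by the longest sparse window, chr4:114143209-114170904 (36.1%), which touches Skint11. The next longest sparse windows were chr4:27341898-27367115 (25218 bp, mean 61.8%) and chr1:112228431-112253582 (25152 bp, 69.3%), so the 3 longest spanned almost the whole range of levels.

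Neighbouring sparse windows did not always share a level. In the pair on chromosome 11, chr11:14983946-15008494 averaged 43.7% and the adjoining chr11:15008495-15030623 averaged 59.8%, and they held 70 and 52 CpGs. The pair on chromosome 8, chr8:74050633-74070739 and chr8:74070740-74092590, averaged 62.4% and 60.3%. The pairs on chromosome 1 averaged 52.0% and 48.1%, with Tmeff2 as the nearest coding gene, and 55.5% and 57.7%, with Cdh19 as the nearest, and the pair on chromosome 7 averaged 52.0% and 42.6%.

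The longest over-full window, chr5:131323819-132553376, is 1229558 bp long, holds 12203 CpGs and lies in Auts2, a gene of neuronal development. Its listed level, which can rest on a part of these CpGs, was 71.4%, 64.6% and 78.3% in G1 against 67.1%, 62.6% and 68.8% in G2/M. The longest gap window, chr4:42033918-42847169, covers a cluster with the chemokine genes Ccl19, Ccl21a and Ccl27b, and had a mean of 72.3%. Neither was less methylated than the average autosomal window. At the threshold, the windows just inside were chr12:96540778-96560778 and chr13:11255560-11275560, both of 20001 bp, with means of 50.1% and 55.1%, and just outside were chr3:140489412-140509409 (19998 bp, 49.9%) and chr4:78678251-78698244 (19994 bp, 57.1%).

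The study sorted these phases to ask whether methylation lost at replication is regained before division. In long windows G1 was above G2/M by 2.24, 1.63 and 1.62 points in replicates 1, 2 and 3. G1 averaged 59.1% ± 3.81 (SD, n = 3) and G2/M averaged 57.3% ± 3.88 (SD, n = 3), and the libraries of the phases overlapped (two-sided exact permutation test over 20 labelings, p = 0.6, where 0.1 is the smallest possible). In other autosomal windows the differences were 1.24, 0.605 and 0.670. The long windows thus exceeded them by 0.995, 1.02 and 0.946 points, 0.989 on average (exact permutation test of the library-wise differences, p = 0.2). Against their own flanks the excess was 0.423, 0.330 and 0.392 points (exact permutation test, p = 0.1, the smallest possible).

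In sparse windows the matched differences were 3.44, 1.86 and 1.98 points, 2.43 on average. They exceeded those of other autosomal windows by 1.59 points (exact permutation test, p = 0.1) and those of over-full windows by 0.726 points (exact permutation test, p = 0.1), with the same sign in 3 of 3 replicate numbers. Against their flanks the excess was 0.538, -0.495 and 0.265 points, 0.103 on average (exact permutation test, p = 0.7). The flanks of sparse windows themselves differed by 2.90, 2.35 and 1.72 points. The excess thus had 1 sign in all replicate numbers against the autosomes and mixed signs against the surrounding sequence, and an exact permutation test of 3 against 3 libraries cannot give a p under 0.1. Sparse windows of 10 to 20 kb had differences of 2.52, 1.98 and 1.55 points.

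The matched difference was above 0 for the long windows of 15 of 19 chromosomes in all 3 replicate numbers. The largest mean was 3.26 points on chromosome 3, and chromosome 19, with 18 windows, was alone below 0 (-0.245). On chromosomes 7 and 4, which hold the largest numbers of long windows, the means were 1.49 and 1.62. The other windows of each chromosome were not set beside these values. Whether the order is particular to long windows was not tested.

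Single windows showed little of this. All 3 matched differences were above 0 in 325 long windows (19.4%), against 16.3% of all windows in the table, and below 0 in 125 (7.48%), against 9.74%. For sparse windows the counts were 57 (22.5%) and 9 (3.56%). In sparse windows of 10 to 20 kb the shares were 22.6% and 6.25%. All G1 values lay above all G2/M values in 90 long windows (5.38%, background 4.12%) and below in 25 (1.5%, background 1.98%). The differences of one replicate number did not predict those of another across the 1672 windows (Pearson r from -0.03 to 0.05, a description).

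With limma fitted to all 359192 windows, 0 long windows passed an adjusted p of 0.05, where 0.00223% of all windows did. At an unadjusted p under 0.05, limma gave 26 long windows higher in G1 (1.56%, background 1.36%) and 10 higher in G2/M (0.598%, background 0.75%). This balance rested on single libraries, with 15 higher in G1 and 24 in G2/M when G1 replicate 3 was left out, and 10 and 18 when G2/M replicate 2 was. Over all windows the balance turned in the same way, with 2877 and 8036, and 2313 and 4106. In either direction these were 2.33% of long windows and 3.04% of all windows without G1 replicate 3. Without G2/M replicate 2 they were 1.67% and 1.79%. With all 6 libraries, 2 sparse windows were higher in G1 (0.791%, background 1.36%) and 0 in G2/M (background 0.75%). The smallest p for G1 was at chr1:7922612-7952383, an over-full intergenic window 409 kb from Sntg1, a syntrophin gene. Its values were 54.5%, 57.4% and 53.0% in G1 against 38.2%, 25.7% and 32.3% in G2/M, with no overlap (limma adjusted p = 1). The smallest for G2/M was at chr4:147347510-147382849, an over-full window touching the zinc-finger gene Zfp978, with 53.6%, 42.9% and 65.2% in G1 against 76.1%, 69.9% and 75.6% in G2/M (limma adjusted p = 1). In the latter window 88.0% of the sampled words were repeated in the genome.

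The sparse windows with the largest differences of one sign are given as a description, since they were chosen by that value. For G1 these were chr6:70384802-70405378, which overlaps an immunoglobulin kappa variable gene, with a mean difference of 14 points, chr3:155658573-155679473 (13.2 points), and chr2:36879977-36900058 at the olfactory receptor gene Olfr353 (13 points). For G2/M they were chr7:48193641-48214317 at Mrgprb4, a receptor gene of sensory neurons (-12.6 points), chr16:47339623-47359901 (-8.54 points) and chr7:61127538-61148054 (-7.22 points). The Mrgprb4 window had 34.6%, 26.4% and 34.9% in G1 against 46.4%, 37.0% and 50.3% in G2/M, and its groups did not overlap.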

How the data were processed

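EM-seq was made from sorted G1 and G2/M cells, 3 biological replicates each. Per the submitters' processing notes and the study's methods, the authors trimmed reads (Trim Galore 0.6.4), aligned them to GRCm38/mm10 with Bismark 0.22.1 and Bowtie2, discarded duplicates, poorly mapped reads and reads in regions of outlying read count, and deposited percent CpG methylation per library over windows of 100 CpGs with a minimum number of CpGs observed in all libraries. No coverage was given, so precision per window is unknown and no count model could be fitted. The regions with outlying counts were removed before deposit, and the effect on window boundaries was not tested.

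Windows over 20000 bp on chromosomes 1 to 19 were taken as members. CpG, GC and N content and the 64-base words were read from GRCm38, and genes from GENCODE M21 (promoter, 1000 bp before to 100 bp after a start). Per-library means were compared by exact permutation over 20 labelings and, for levels, by exact sign flips over 3 replicate numbers. Single windows were tested with limma 3.58.1 (R 4.3.3) on log2((percent + 1)/(100 - percent + 1)) with trend and Benjamini-Hochberg adjustment over all windows, tested first on simulated data. Windows described singly were the 3 longest, highest, lowest and most different sparse windows, the smallest p in each direction, adjacent sparse pairs, the longest gap and over-full windows and those at the threshold. Windows on chromosome 18 were not described singly. One of the 3 highest sparse windows is not reported here. Members and gene lists were chosen with earlier results of these data known. Alternatives covered the length threshold, sequence class, weighting, centring, flank size and left-out libraries.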

Additional observations from a re-analysis of the deposited data

How the results depend on the processing

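The level below other autosomal windows, the level below the flank, and both excesses of the phase difference kept their sign under all alternatives run. The level against other windows ranged from -9.06 to -3.18 points and against the flank from -5.86 (sparse windows only) to -0.0742 (threshold of 30 kb), so above 30 kb the flank difference was near 0. The excess of the phase difference ranged from 0.564 to 1.59 against other windows and from 0.103 to 0.649 against the flank. The phase difference of long windows, 1.83 points as reported, was 0.755 with libraries centred on their medians, and it ranged from -0.216 to 3.98 points when 1 library was left out, and it reversed without G1 replicate 3 (-0.216), since replicate numbers differ in level. The cause of the replicate levels was not tested.

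Same-numbered libraries deviated together only weakly from window to window (r from 0.0274 to 0.0549 over all windows, against -0.0299 to -0.00144 for different numbers). Deviations were taken from the phase mean of each window. Values for different numbers therefore tend below 0 when same-numbered ones lie above it, and are no independent contrast. In the long windows the ranges overlapped (-0.0300 to 0.0406 for same numbers, -0.0731 to 0.0407 for different ones). This r also takes out the mean level of each library, which moved with the replicate number, so it does not measure that shared level. The phase tests left out the replicate number, as the study's methods name no blocked test for window means. The p of the phase difference thus includes the spread between replicate numbers. The matched differences, and the level tests over replicate numbers, follow the numbers that the study calls matched. With the replicate block the phase difference stayed at 1.83 points (exact sign-flip p = 0.25), as did the other means, and limma again gave 0 long windows at an adjusted p under 0.05, as under all alternatives run. Unadjusted limma calls, 36 as reported (2.15% of long windows, 2.11% of all windows), were 80 with the replicate block (4.78% and 4.83%). They were 74 with libraries centred on their medians (4.43% and 4.90%), with 44 higher in G1 and 30 in G2/M. Over windows of 10% to 90% methylation they were 60 (3.59% and 2.30%). The fit as reported called 122 of 9848 windows over 15 kb, 20 of 564 over 30 kb and 2 of 253 sparse windows (0.791%). Its share over all windows was 2.11%. Leaving out 1 library gave 25 to 69, with 58 when G1 replicate 2 was absent (3.47%, all windows 3.05%) and 69 when G2/M replicate 3 was (4.13%, all windows 3.76%).

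With 3 libraries per phase no permutation p can pass 0.05, and without coverage a window that rests on few calls cannot be told from one that rests on many.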
